A study of Homo sapiens with 18 samples.

Results

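The subject is how far the early transcriptional effect of DCLK1-IN-1 differed between 2 human pancreatic ductal adenocarcinoma cell lines, PATU-8902 and PATU-8988T. The line difference is the log2 change from DMSO at 6 h in PATU-8902 minus the same change in PATU-8988T, so a positive value means a larger rise, or a smaller fall, in PATU-8902. It used 12 of the 18 libraries and 4 groups of 3: in each line, cells given the vehicle DMSO and collected at 24 h, and cells given DCLK1-IN-1, which blocks the kinase DCLK1, at 2.5 µM and collected at 6 h. The remaining 6 libraries, inhibitor for 24 h, helped to choose the genes tested and to estimate the spread. They also gave a 24 h contrast, set beside the 6 h values near the end. Of the 26249 genes in the table, 11477 averaged 1 FPKM or more across all 18 libraries and were tested. FPKM is a read density scaled to transcript length. No group received DMSO for 6 h, so in each line the inhibitor effect and the difference in collection time cannot be told apart. The labels name no genetic change in either line, and a difference between 2 established lines is not a difference between classes of tumour. These are bulk samples, in which fewer cells with a transcript and less of it per cell cannot be told apart.

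DCLK1 encodes a kinase of the doublecortin family that binds microtubules, and it is studied in pancreatic cancer as a marker of tuft-like and stem-like cells. The genes that take up most of what follows belong to cholesterol homeostasis. When sterols in the endoplasmic reticulum fall, the escort protein SCAP releases from INSIG proteins and carries the SREBP transcription factors to the Golgi, where they are cut and freed to switch on genes of cholesterol synthesis and uptake. INSIG1 is itself a target of SREBP and closes the loop.

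The 12 libraries had a median of 6.12 to 16.7 FPKM over the genes tested, lowest in PATU-8988T DMSO replicate 1 and highest in PATU-8902 6 h replicate 2. Spike-in RNA had been added to RNA scaled by cell count, and its mean level deviated by -0.01 to 0.01 (log2) between libraries, so the deposited values are relative to the spike-ins. What gives the libraries their different medians was not tested. Levels of single libraries are given on the log2(FPKM + 1) scale after each library was shifted to a common median, called the shifted log2 level, where 1 unit is about a doubling. The 8 markers of ductal epithelium summed to 2977 to 5445 FPKM over the PATU-8902 libraries and 385 to 980 FPKM over those of PATU-8988T, where KRT7, KRT19 and CDH1 lay at or near the floor. KRT7, KRT19, CDH1 and EPCAM averaged 471, 458, 94.2 and 732 FPKM in PATU-8902 DMSO, and 0.182, 0.109, 0.129 and 13.4 FPKM in PATU-8988T DMSO. KRT8 and KRT18 were present in both, with DMSO means of 342 and 405 FPKM in PATU-8988T. Of 28 markers of acinar, endocrine, fibroblast, endothelial, immune, neural and tuft cells, only CD68 and MAP2 reached 1 FPKM in any of the 12 libraries, and no other exceeded 0.812 FPKM.

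No gene passed the threshold for the line difference at 6 h. With limma and Benjamini-Hochberg adjustment over 11477 genes, 0 genes (0%) were called higher and 0 (0%) lower at an adjusted p below 0.05. At an unadjusted p below 0.05 there were 554 higher (4.83%) and 831 lower (7.24%), 1385 in all. On values as deposited, with no shift, 0 genes were called and 99 had an unadjusted p below 0.05. The median half-width of the 95% interval of a line difference, without adjustment, was 0.34 on the log2 scale. A call after adjustment over 11477 genes needed more than an interval that excludes 0. SQLE, with a small SE, had a line difference of 0.50 ± 0.07 (SE) and was not called. The 2 smallest p-values belonged to SQLE and INSIG1, both at an adjusted p of 0.0695.

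The count of 0 depended on 1 library. Without PATU-8988T DMSO replicate 1, 1132 genes (9.86%) were called higher and 1176 (10.2%) lower. Leaving out any other single library gave between 0 and 2 calls. The SD over genes of the difference between 2 libraries was 0.57 and 0.60 between replicate 1 and the other PATU-8988T DMSO libraries, 0.47 between those 2, and 0.40 between replicate 1 and 6 h replicate 1 of the same line. Of the 16 genes of smallest p named below, 8 in each direction, all 16 passed without this replicate and only INSIG1 passed without replicates 2 and 3. Which of the 3 libraries is typical of the line was not tested.

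DCLK1, the targeted gene, had shifted log2 levels of 4.28, 4.41 and 4.27 in PATU-8902 DMSO, 4.32, 4.38 and 4.31 after 6 h, 5.09, 4.95 and 4.92 in PATU-8988T DMSO, and 5.14, 5.08 and 5.09 after 6 h. The 6 h and DMSO libraries overlapped in both lines. The line difference of DCLK1 was -0.09 ± 0.09 (SE, 95% interval -0.28 to 0.10, limma adjusted p = 0.624). The transcript is not the level at which a kinase inhibitor acts, so these levels show that both lines express the gene and say nothing of the protein's activity.

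With all libraries, few genes changed within a line at 6 h, and sterol genes were prominent among them. In PATU-8902, 12 genes (0.105%) rose and 1 (0.00871%) fell, against 153 (1.33%) and 117 (1.02%) at an unadjusted p below 0.05. In PATU-8988T, 6 genes (0.0523%) rose and 3 (0.0261%) fell, against 1574 (13.7%) and 1816 (15.8%). The lines share no libraries, and 5 genes rose in both, among them INSIG1, HMGCS1, IDI1 and SQLE, which is 38.5% of the 13 calls in PATU-8902 and 55.6% of the 9 in PATU-8988T. The other calls in PATU-8902 included MSMO1, HSD17B7, STARD4, CYP51A1, LPIN1 and TXNIP, which rose, and MYLIP, which fell. The other calls in PATU-8988T were PANK3, a pantothenate kinase of coenzyme A synthesis, which rose, and IFITM1, SLC39A4 and HBEGF, which fell. On values as deposited the counts were 1 and 0, so calls within a line rest on the shift to a common median. The count in PATU-8988T was 4884 (2159 higher and 2725 lower) without its DMSO replicate 1, so the small number there holds only with that library in.

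INSIG1, the sterol-dependent retention factor for SREBP, had the largest line difference of the genes that rose in both lines. Its shifted log2 levels were 3.21, 3.24 and 3.35 in PATU-8902 DMSO and 4.97, 5.04 and 4.98 after 6 h. In PATU-8988T they were 3.36, 3.34 and 3.05 in DMSO and 4.21, 4.06 and 4.18 after 6 h. The DMSO levels of the lines overlapped, all 6 h libraries lay above them, and the PATU-8902 6 h libraries lay above the PATU-8988T ones. INSIG1 rose 3.31-fold on the scale of shifted FPKM + 1 in PATU-8902 (log2 1.73 ± 0.09 SE, adjusted p = 4.08e-08) and 1.87-fold in PATU-8988T (0.90 ± 0.09, adjusted p = 3.14e-04). The line difference was 0.83 ± 0.13 (95% interval 0.55 to 1.11, adjusted p = 0.0695). It was 0.77 (adjusted p = 0.00502) without PATU-8988T DMSO replicate 1 and 0.94 without replicates 2 and 3, and over all alternatives it ran from 0.77 to 0.94. INSIG1 did not pass in 19 of 23 alternatives. Among these were the 12 compared libraries alone (adjusted p = 0.173), the replicate blocks (0.206 within a line and 0.219 shared) and values as deposited.

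**Figure D1:**
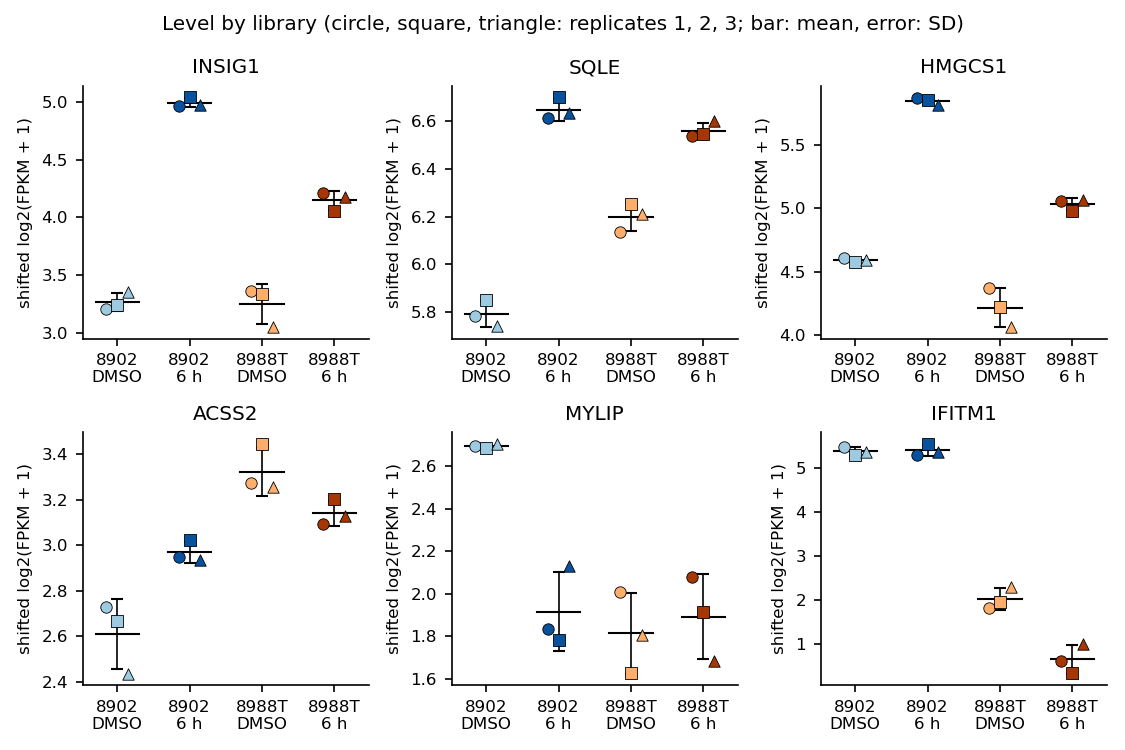
Shifted log2(FPKM + 1) of 6 genes in each of the 12 libraries, with group mean (bar) and SD (error bar), 3 libraries per group; vertical axes differ between genes and do not start at 0. INSIG1, SQLE and HMGCS1 were above DMSO in every 6 h library of both lines, MYLIP was lower after 6 h in PATU-8902, and IFITM1 was lower after 6 h in PATU-8988T.

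The sensing and processing machinery was mixed. Of the 11 genes of this list, INSIG1 included, 6 had a line difference above 0 (54.5%, against 55.8% of all genes) and 5 below. Their median was 0.07 against 0.04 over all genes tested. The median was 0.15 without PATU-8988T DMSO replicate 1 and -0.07 without replicates 2 and 3. At an unadjusted p below 0.05, 2 were higher in PATU-8902 and 3 lower, against 4.83% and 7.24% of all genes. SREBF2, which encodes the SREBP that chiefly drives cholesterol genes, had a line difference of 0.43 ± 0.15 (adjusted p = 0.403), from changes of 0.25 in PATU-8902 and -0.18 in PATU-8988T. The difference for SREBF2 was 0.55 (adjusted p = 0.0162) without PATU-8988T DMSO replicate 1 and 0.20 without replicates 2 and 3. Its 6 h and DMSO libraries overlapped in both lines.

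Most enzymes of cholesterol synthesis had line differences in the direction of INSIG1. All 23 enzymes of the 3 pathway lists were tested, and 21 (91.3%) had a line difference above 0, against 55.8% of all genes. Values ran from -0.21 to 0.77. The median was 0.33, against 0.04 over all genes tested. At an unadjusted p below 0.05, 10 were higher in PATU-8902 and 0 lower, against 4.83% and 7.24% of all genes. After adjustment 0 passed. The exceptions below 0 were GGPS1, which makes the prenyl chain for protein modification off the sterol branch (-0.21 ± 0.12), and LBR, a lamin-binding sterol reductase (-0.16 ± 0.10). Without PATU-8988T DMSO replicates 2 and 3 they were at -0.02 and -0.01, and GGPS1 passed without replicate 1 (-0.31, adjusted p = 0.0477). Without PATU-8988T DMSO replicate 1 the median was 0.36. In that fit 12 enzymes were called higher and 1 lower, against 9.86% and 10.2% of all genes. Without replicates 2 and 3 the median was 0.26. These lists were drawn up with earlier results of these data known, so the counts are a description.

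Within the lines, separation of the 6 h from the DMSO libraries was counted. In PATU-8902 all 3 libraries at 6 h lay above all 3 DMSO libraries for 14 of the 23 enzymes (3.67% of all genes tested) and below for 0 (4.37%). In PATU-8988T the counts were 9 above (10.2% of all genes) and 0 below (9.51%). Of the 14 above in PATU-8902, 8 were also above in PATU-8988T and 6 were not. Of the 9 above in PATU-8988T, 8 were also above in PATU-8902. The matching shares of all genes for both lines together were not counted, so these counts are a description. The median 6 h effect of the enzymes was 0.33 in PATU-8902 and 0.02 in PATU-8988T. Across the 23 enzymes the effects of the lines had a Pearson's r of 0.76, against 0.12 across all 11477 genes, where genes are not independent replicates.

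**Figure D2:**
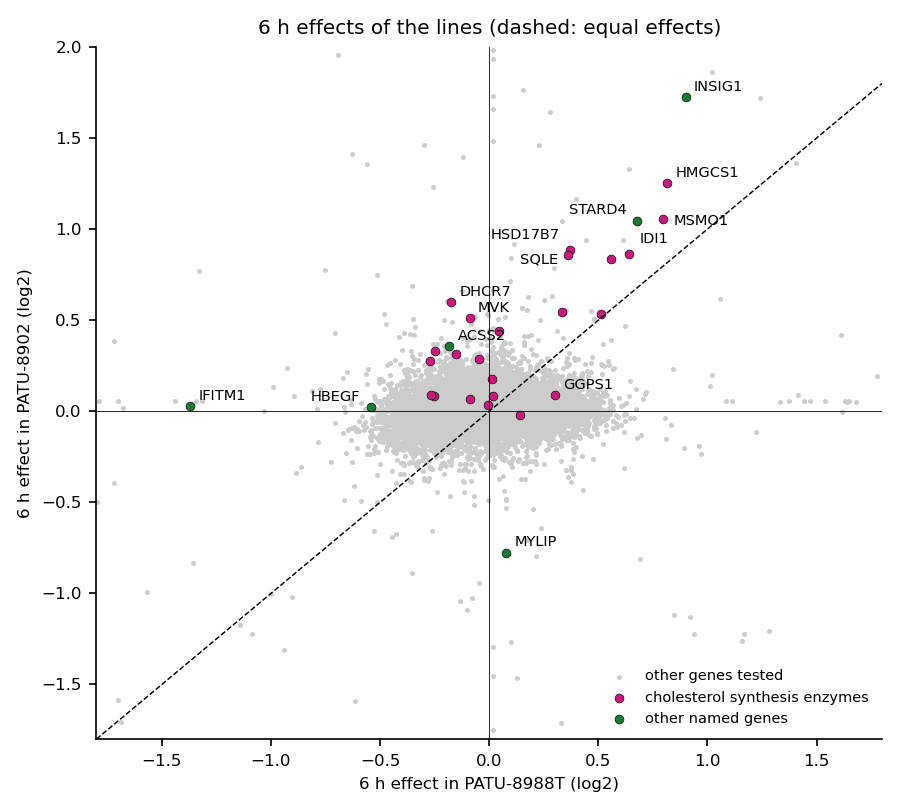
The 6 h effect (log2) in PATU-8988T (horizontal) against PATU-8902 (vertical), 1 point per gene, with enzymes of cholesterol synthesis in pink, other named genes in green and the line of equal effects dashed; 92 genes, of which 88 are small RNAs, lie outside the axes. Of the 23 enzymes, 21 lie above the dashed line, as do 55.8% of all genes tested. INSIG1 is at the upper right, and MYLIP and IFITM1 lie near 0 in the line where they did not change.

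In the mevalonate pathway, which builds isoprenoid units from acetyl-CoA, 8 of 9 genes had a line difference above 0, with a median of 0.28. HMGCS1, which makes HMG-CoA, had shifted log2 levels of 4.61, 4.58 and 4.60 in PATU-8902 DMSO and 5.87, 5.86 and 5.81 after 6 h. Its levels in PATU-8988T were 4.37, 4.22 and 4.07 in DMSO and 5.06, 4.98 and 5.07 after 6 h. The groups did not overlap in either line. HMGCS1 rose 2.38-fold in PATU-8902 (adjusted p = 4.08e-08) and 1.76-fold in PATU-8988T (adjusted p = 4.13e-05), with a line difference of 0.44 ± 0.10 (adjusted p = 0.403). That of HMGCS1 passed at 0.36 (adjusted p = 0.0124) without PATU-8988T DMSO replicate 1 and at 0.59 (adjusted p = 0.0234) without replicates 2 and 3. IDI1, which isomerises isopentenyl diphosphate, rose 1.82-fold and 1.56-fold, and its line difference of 0.23 ± 0.13 had a 95% interval of -0.04 to 0.50. For IDI1 it was 0.15 and 0.37 without replicate 1 and without replicates 2 and 3.

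With all libraries MVK, the mevalonate kinase, had effects of opposite signs in the lines. Of the 9 mevalonate genes 9 had an effect above 0 in PATU-8902, and 4 had one below 0 in PATU-8988T. Its shifted log2 levels were 2.53, 2.47 and 2.56 in PATU-8902 DMSO and 2.92, 3.29 and 2.89 after 6 h. In PATU-8988T they were 2.57, 2.74 and 2.90 in DMSO and 2.61, 2.58 and 2.76 after 6 h. The groups were separate in PATU-8902 and overlapped in PATU-8988T. All 6 h libraries of PATU-8988T lay above its DMSO replicate 1, so the sign of the effect there depended on replicates 2 and 3. The line difference of MVK was 0.60 ± 0.15 (adjusted p = 0.403), from effects of 0.51 (adjusted p = 0.127) and -0.09 (adjusted p = 0.588), neither of which passed. It was 0.68 (adjusted p = 0.0101) without PATU-8988T DMSO replicate 1 and 0.44 without replicates 2 and 3.

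From squalene to lanosterol and the first demethylation, 5 of 6 genes had a line difference above 0, with a median of 0.30. SQLE, the squalene epoxidase and a second control point of the pathway, had shifted log2 levels of 5.78, 5.85 and 5.74 in PATU-8902 DMSO and 6.61, 6.70 and 6.63 after 6 h. In PATU-8988T they were 6.14, 6.25 and 6.21 in DMSO and 6.54, 6.54 and 6.60 after 6 h. The groups did not overlap in either line, and PATU-8902 started below PATU-8988T in DMSO and lay just above it after 6 h. SQLE rose 1.81-fold in PATU-8902 (adjusted p = 1.42e-07) and 1.29-fold in PATU-8988T (adjusted p = 0.00873). Its line difference was 0.50 ± 0.07 (95% interval 0.34 to 0.65, adjusted p = 0.0695), 0.53 (adjusted p = 0.00415) without PATU-8988T DMSO replicate 1 and 0.43 (adjusted p = 0.197) without replicates 2 and 3. SQLE passed with a pseudocount of 0.1 FPKM (adjusted p = 0.0122) and with a minimum mean of 5 FPKM (adjusted p = 0.0172). It did not pass in 19 of 23 alternatives. Among these were the 12 compared libraries alone (adjusted p = 0.251), the replicate blocks (0.206 within a line and 0.137 shared) and values as deposited. LSS, the lanosterol synthase, had a line difference of 0.58 ± 0.15, from 0.33 in PATU-8902 and -0.25 in PATU-8988T, and passed at 0.65 (adjusted p = 0.0140) without that replicate 1. CYP51A1, the lanosterol demethylase, had a line difference of 0.21 ± 0.10.

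All 8 genes of late sterol synthesis had a line difference above 0, with a median of 0.34. DHCR7, which reduces 7-dehydrocholesterol to cholesterol, had shifted log2 levels of 4.30, 3.85 and 4.01 in PATU-8902 DMSO and 4.63, 4.84 and 4.50 after 6 h. In PATU-8988T they were 5.02, 5.47 and 5.54 in DMSO and 5.20, 5.03 and 5.28 after 6 h. PATU-8988T DMSO replicate 1 lay just below the 6 h libraries of its line, and replicates 2 and 3 lay above them. The line difference of DHCR7 was 0.77 ± 0.19 (adjusted p = 0.403), the largest among the 23 enzymes, and it was 0.94 (adjusted p = 0.00477) without that replicate 1 and 0.45 without replicates 2 and 3. HSD17B7 and NSDHL, which act on the sterol ring after demethylation, had line differences of 0.52 ± 0.16 and 0.47 ± 0.14. That of NSDHL was 0.62 (adjusted p = 0.00447) without PATU-8988T DMSO replicate 1 and 0.16 without replicates 2 and 3. MSMO1, a sterol methyl oxidase, rose 2.08-fold in PATU-8902 (adjusted p = 0.00403) and was at 1.74-fold in PATU-8988T without passing (adjusted p = 0.0628). Its line difference of 0.26 ± 0.21 was 0.03 without PATU-8988T DMSO replicate 1 and 0.73 without replicates 2 and 3.

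**Figure D3:**
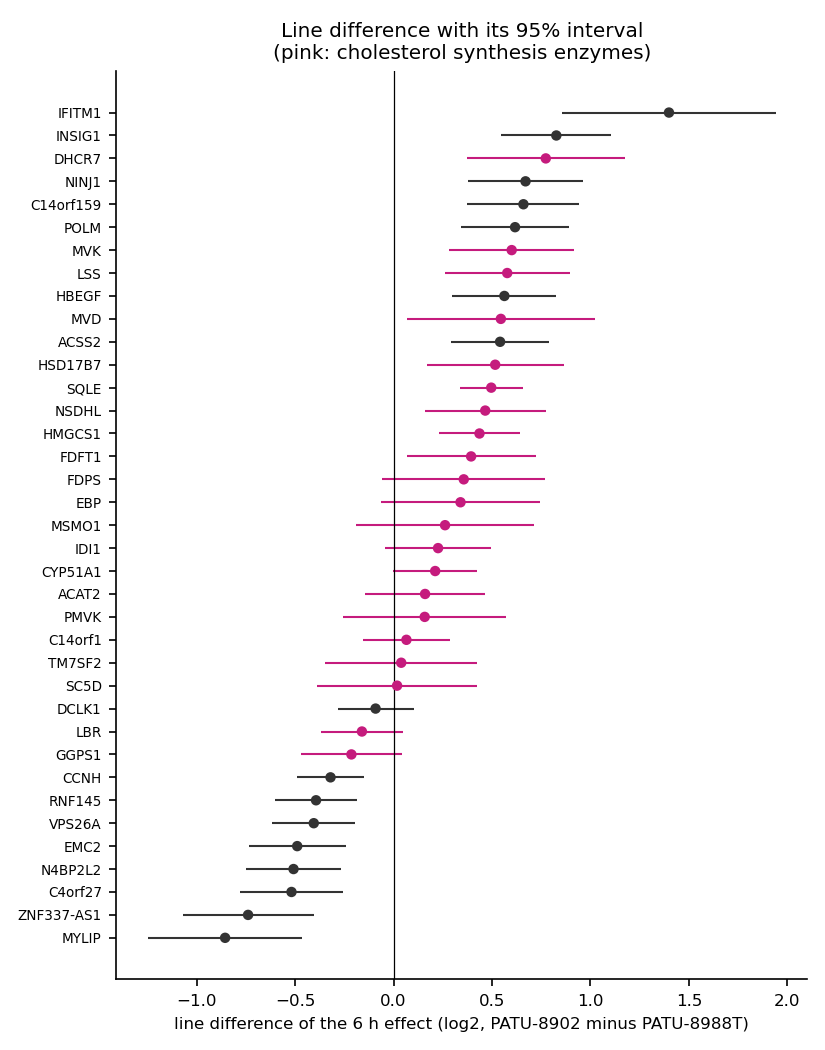
Line difference of the 6 h effect (log2, horizontal) with its 95% interval for DCLK1, the 16 genes with the smallest p in either direction and 21 enzymes of cholesterol synthesis (pink). The intervals are not adjusted, and those of the 16 genes exclude 0 because these genes were picked by their p-values. Those of INSIG1 and SQLE were 0.55 to 1.11 and 0.34 to 0.65. No gene passed after adjustment over all genes tested.

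Genes of cholesterol uptake were mixed. Of 13 listed genes 12 were tested, and 8 had a line difference above 0 (66.7%, against 55.8% of all genes). The median was 0.17, or 0.10 without PATU-8988T DMSO replicates 2 and 3. At an unadjusted p below 0.05, 3 were higher and 1 lower, against 4.83% and 7.24% of all genes. STARD4, a carrier of cholesterol between membranes, had a line difference of 0.37 ± 0.22, which was 0.13 without PATU-8988T DMSO replicate 1 and 0.84 without replicates 2 and 3.

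MYLIP (IDOL), a ubiquitin ligase that limits cholesterol uptake, had the largest negative line difference among the 16 genes of smallest p. Its shifted log2 levels were 2.69, 2.68 and 2.70 in PATU-8902 DMSO and 1.84, 1.78 and 2.13 after 6 h. In PATU-8988T they were 2.01, 1.63 and 1.81 in DMSO and 2.08, 1.91 and 1.69 after 6 h. The groups were separate in PATU-8902 and overlapped in PATU-8988T, where both groups lay near the lowered level of PATU-8902. MYLIP fell to 0.584 of its DMSO level in PATU-8902 (log2 -0.78 ± 0.13, adjusted p = 0.0206) and was at 1.06 in PATU-8988T (adjusted p = 0.716). The call of MYLIP in PATU-8902 ended without 6 h replicate 1 of that line, without its 6 h replicate 2, and with only the 12 compared libraries. The line difference was -0.86 ± 0.18 (95% interval -1.25 to -0.46, adjusted p = 0.392), -0.95 (adjusted p = 0.00735) without PATU-8988T DMSO replicate 1 and -0.66 without replicates 2 and 3. MYLIP is also a target of the sterol-activated LXR receptors, and 4 other listed LXR genes were tested. The list of 5 had a median of 0.03. At an unadjusted p below 0.05, 1 gene was higher and 1, MYLIP itself, was lower, against 4.83% and 7.24% of all genes.

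In fatty acid synthesis, which SREBP proteins also regulate, 16 of 18 listed genes were tested. Of these 11 had a line difference above 0 (68.75%, against 55.8% of all genes). The median was 0.12, or 0.03 without PATU-8988T DMSO replicates 2 and 3. ACSS2, the cytosolic enzyme that turns acetate into acetyl-CoA, had shifted log2 levels of 2.73, 2.67 and 2.44 in PATU-8902 DMSO and 2.95, 3.02 and 2.94 after 6 h. In PATU-8988T they were 3.27, 3.45 and 3.25 in DMSO and 3.09, 3.20 and 3.13 after 6 h. All 6 h libraries lay above DMSO in PATU-8902 and below DMSO in PATU-8988T. The line difference of ACSS2 was 0.54 ± 0.12 (adjusted p = 0.392), from effects of 0.36 (adjusted p = 0.25) and -0.18 (adjusted p = 0.157) that did not pass within a line. LPIN1, a phosphatidate phosphatase, rose by 0.50 on the log2 scale in PATU-8902 (adjusted p = 0.00433), with a line difference of 0.27 ± 0.10, which passed at 0.31 (adjusted p = 0.0442) without PATU-8988T DMSO replicate 1.

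Promoter sequences were read for 4 genes of the 2 directions: INSIG1 and HMGCS1, which rose in both lines, ACSS2, with opposite signs, and MYLIP, which fell in PATU-8902. Each is the 250 bases before the RefSeq start, 5′ to 3′ on the gene's strand, in GRCh38.p14: INSIG1 at chr7:155297628-155297877 on the plus strand, HMGCS1 at chr5:43313413-43313662 on the minus strand, ACSS2 at chr20:34874739-34874988 and MYLIP at chr6:16128836-16129085 on the plus strand. Capitals mark matches on either strand to CCAAT, the core of the NF-Y site that often lies beside SREBP sites, and to CACNCCAC, the core of the sterol regulatory element.
INSIG1: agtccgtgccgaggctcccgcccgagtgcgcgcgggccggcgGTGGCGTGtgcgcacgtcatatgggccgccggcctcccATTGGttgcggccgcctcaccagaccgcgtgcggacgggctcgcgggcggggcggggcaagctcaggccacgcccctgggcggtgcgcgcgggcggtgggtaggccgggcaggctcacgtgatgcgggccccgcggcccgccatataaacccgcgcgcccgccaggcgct
HMGCS1: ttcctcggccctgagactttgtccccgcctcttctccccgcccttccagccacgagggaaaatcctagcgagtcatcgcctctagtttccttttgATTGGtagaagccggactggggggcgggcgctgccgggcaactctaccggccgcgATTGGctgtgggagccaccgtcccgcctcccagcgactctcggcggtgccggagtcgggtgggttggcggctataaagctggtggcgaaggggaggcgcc
ACSS2: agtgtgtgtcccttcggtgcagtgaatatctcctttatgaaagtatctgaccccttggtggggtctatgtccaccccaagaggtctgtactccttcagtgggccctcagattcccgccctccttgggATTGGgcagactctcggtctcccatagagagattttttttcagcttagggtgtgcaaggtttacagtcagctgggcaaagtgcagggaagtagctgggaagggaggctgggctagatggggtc
MYLIP: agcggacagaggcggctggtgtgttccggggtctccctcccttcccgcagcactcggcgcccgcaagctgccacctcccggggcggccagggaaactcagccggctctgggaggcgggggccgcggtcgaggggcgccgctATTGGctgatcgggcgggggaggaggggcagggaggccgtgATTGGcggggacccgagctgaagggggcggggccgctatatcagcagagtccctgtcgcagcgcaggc
RefSeq promoters of 300 bases, 50 of them after the start, were matched for 18 of the 23 enzymes; SQLE, FDFT1 and ACAT2 were among those with no entry. CCAAT occurred in 13 of the 18 (72.2%), against 35.7% of all 27305 promoters. The GC box, GGGCGG, occurred in 15 of the 18 (83.3%), against 44.6%, so a higher share was not particular to CCAAT. CACNCCAC occurred in 1 of 18 (5.56%), against 5.74%, and the longer TCACNCCAC in 0 of 18, against 1.15%. Both INSIG1, with its CACNCCAC match at bases 43 to 50, and MYLIP, with CCAAT at bases 142 to 146 and 183 to 187, hold CCAAT, while CACNCCAC was found in INSIG1 and not in the MYLIP window. A match is a description of the sequence and not evidence of a bound factor.

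The genes whose pattern over the 12 libraries was most like that of INSIG1, by Pearson's r of shifted log2 levels after subtracting each line's DMSO mean, included HMGCS1 (0.99), SQLE (0.98), IDI1 (0.97), CYP51A1 (0.95), LPIN1 (0.93), TXNIP (0.93) and HSD17B7 (0.93). The r is a description over 12 libraries that form 4 groups. TXNIP, a thioredoxin-binding protein, is a gene of glucose response and not of sterol synthesis. It rose by 0.42 on the log2 scale in PATU-8902 (adjusted p = 0.0105), with a line difference of 0.23 ± 0.09.

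Outside lipid metabolism, the line difference of IFITM1, an interferon-induced membrane protein that blocks virus entry, came from PATU-8988T. IFITM1 measured 60.3, 45.5 and 47.0 FPKM in PATU-8902 DMSO and 39.0, 70.6 and 45.1 FPKM after 6 h. In PATU-8988T it measured 1.15, 3.37 and 3.75 FPKM in DMSO and 0.0701, 0.0790 and 1.16 FPKM after 6 h. In FPKM the groups overlapped in both lines, in PATU-8988T at 1.15 in DMSO replicate 1 and 1.16 in 6 h replicate 3. In PATU-8988T 6 h replicates 1 and 2 lay at or just above the floor of 0.0701 and 0.0781 FPKM of their libraries. On the shifted scale IFITM1 fell in PATU-8988T (log2 -1.37 ± 0.18, adjusted p = 0.00366) and was at 0.03 in PATU-8902, a line difference of 1.40 ± 0.25 (adjusted p = 0.211). With values at the floor its size depended on the pseudocount, at 2.94 with 0.1 FPKM. The difference for IFITM1 passed (adjusted p = 0.00553) without PATU-8988T DMSO replicate 1. Of 28 interferon-stimulated genes 25 were tested. Of these 21 had a line difference above 0 (84%, against 55.8% of all genes), with a median of 0.23. At an unadjusted p below 0.05, 6 were higher and 0 lower, against 4.83% and 7.24% of all genes. ISG15, a ubiquitin-like modifier, and MX1, an antiviral GTPase, had line differences of 0.79 ± 0.30 and 0.45 ± 0.13. Both passed without that replicate 1, and ISG15 was at 0.45 without replicates 2 and 3. The median of the list was 0.05 without PATU-8988T DMSO replicate 1 and 0.43 without replicates 2 and 3, so its size depended on that line's DMSO libraries.

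The other genes of smallest p higher in PATU-8902 were alike in that the larger effect was a lower level in PATU-8988T. HBEGF, a ligand of the EGF receptor, averaged 10.9 ± 4.74 FPKM (SD, n = 3) in PATU-8988T DMSO and 6.68 ± 1.59 after 6 h, against 55.2 ± 2.99 and 55.3 ± 13.5 in PATU-8902. On the shifted scale HBEGF fell in PATU-8988T (log2 -0.54 ± 0.09, adjusted p = 0.0222), with a line difference of 0.56 ± 0.12 (adjusted p = 0.403). For HBEGF this was 0.68 (adjusted p = 0.00415) without PATU-8988T DMSO replicate 1 and 0.32 without replicates 2 and 3. SLC39A4, a zinc importer, also fell in PATU-8988T (-0.63 ± 0.11, adjusted p = 0.0467), with a line difference of 0.67 ± 0.16 that passed without that replicate 1 (0.70, adjusted p = 0.0156). NINJ1, a membrane protein of plasma membrane rupture, had effects of 0.18 and -0.50, C14orf159, a D-glutamate cyclase, 0.31 and -0.35, and POLM, a polymerase of DNA end joining, 0.23 and -0.39, in PATU-8902 and PATU-8988T. Their line differences were 0.67, 0.66 and 0.62, each at an adjusted p of 0.392.

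The 8 genes of smallest p lower in PATU-8902 had line differences from -0.86 for MYLIP to -0.32 for CCNH, at adjusted p-values of 0.392 to 0.403. ZNF337-AS1, an antisense RNA, had effects of -0.54 in PATU-8902 and 0.20 in PATU-8988T; no source used here says if reads were counted by strand, so its reads cannot be separated from those of an overlapping gene. For EMC2, a subunit of the membrane protein insertase of the endoplasmic reticulum, VPS26A, a retromer subunit of endosomal sorting, and RNF145, a ubiquitin ligase of the endoplasmic reticulum, the effect lay mostly in PATU-8988T, at 0.45, 0.35 and 0.30 against -0.04, -0.05 and -0.09 in PATU-8902. For N4BP2L2, C4orf27 and CCNH, the cyclin of the CDK-activating kinase, all 6 h libraries were above DMSO in PATU-8988T and below DMSO in PATU-8902. Their line differences were -0.51 ± 0.11, -0.52 ± 0.12 and -0.32 ± 0.08. Without PATU-8988T DMSO replicates 2 and 3 the values were -0.32 for N4BP2L2, -0.32 for C4orf27, -0.31 for EMC2 and -0.26 for VPS26A.

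Large housekeeping groups also had medians above 0, and these turned with the DMSO libraries of PATU-8988T. Of 37 cytosolic ribosomal protein genes 35 had a line difference above 0 (94.6%, against 55.8% of all genes). Their median was 0.31, with 0 genes at an unadjusted p below 0.05. Of 30 genes of oxidative phosphorylation 28 were above 0 (93.3%), with a median of 0.25. The medians were 0.25 for actin genes of SRF and MRTF, 0.23 for glycolysis and 0.23 for lysosomal genes, and -0.21 for TGF-beta targets. Against the mean of the line's 6 libraries, ribosomal protein genes lay at -0.26, 0.27 and 0.46 in PATU-8988T DMSO replicates 1, 2 and 3, and at -0.25, -0.21 and -0.05 after 6 h. Replicate 1 of DMSO lay with the 6 h libraries, and replicates 2 and 3 above them. The lowest values of that line were in its libraries of lowest median (6.12, 7.08 and 8.89 FPKM). In PATU-8902 the genes lay at 0.27, -0.15 and -0.04 in DMSO and -0.17, 0.26 and -0.12 after 6 h. There the highest values were in DMSO replicate 1 and 6 h replicate 2, the libraries of highest median (14.9 and 16.7 FPKM). A link with library median was not tested.

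**Figure D4:**
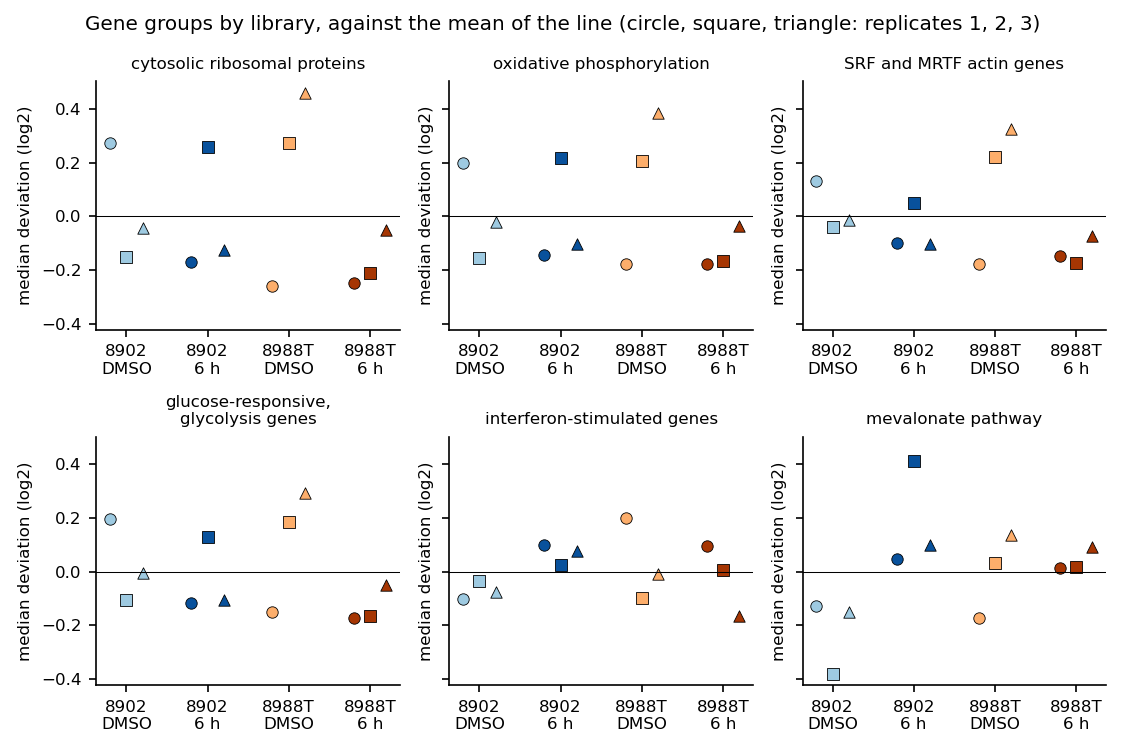
Median deviation (log2, vertical) of 6 gene groups from the mean of the 6 libraries of the line, for each of the 12 libraries; symbols give the replicate. In ribosomal, oxidative phosphorylation, actin and glycolysis genes PATU-8988T DMSO replicate 1 lies with the 6 h libraries, while for the mevalonate genes the PATU-8902 6 h libraries all lie above the DMSO libraries.

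Without PATU-8988T DMSO replicate 1 the medians were 0.53 for ribosomal protein genes, 0.41 for oxidative phosphorylation, 0.40 for the actin genes, 0.36 for glycolysis and 0.34 for lysosomal genes. Without replicates 2 and 3 they were -0.13, -0.08, -0.07, -0.07 and -0.05. TGF-beta targets went from -0.40 to 0.02. The 3 sterol synthesis lists kept medians above 0 in both, at 0.28 and 0.26 for the mevalonate pathway, 0.34 and 0.23 for squalene to lanosterol, and 0.45 and 0.30 for late synthesis. Medians above 0 in both were not particular to the sterol lists. They were 0.18 and 0.33 for NF-kB feedback genes and chemokines, and 0.25 and 0.18 for immediate early and AP-1 genes. For the EGF receptor family and ligands they were 0.16 and 0.30, and for interferon-stimulated genes 0.05 and 0.43. These values share all libraries of the other groups and are not independent of each other.

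**Figure D5:**
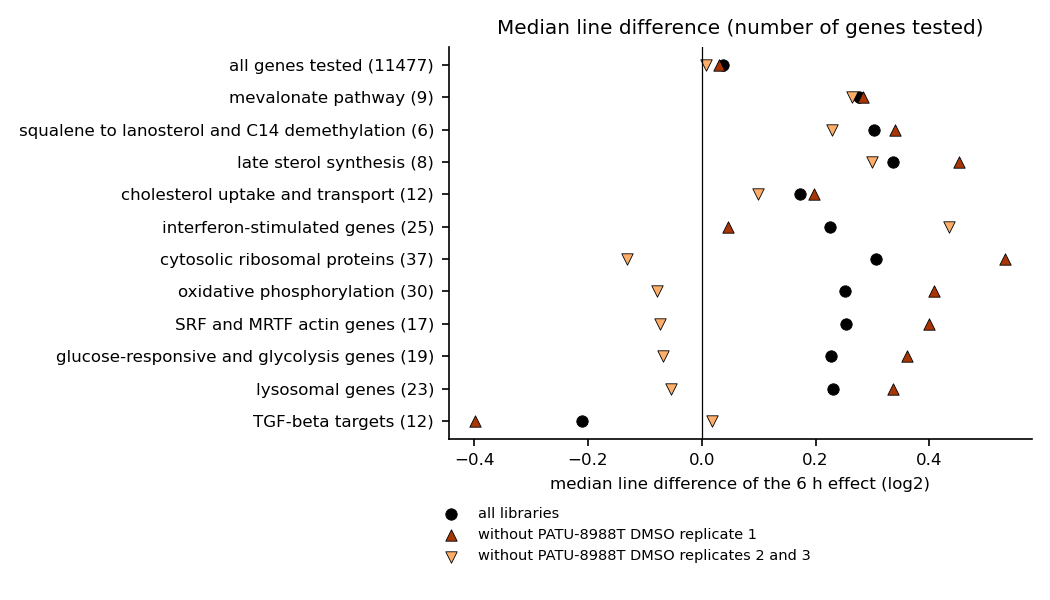
Median line difference of the 6 h effect (log2, horizontal) of 11 gene groups and of all genes tested, with all libraries (circles), without PATU-8988T DMSO replicate 1 (upward triangles) and without its replicates 2 and 3 (downward triangles). The sterol synthesis groups stay above 0 in all 3, as do the cholesterol uptake and interferon groups. The ribosomal, oxidative phosphorylation, actin, glycolysis, lysosomal and TGF-beta groups change sign.

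At 24 h of inhibitor the same contrast called 25 genes (0.218%) higher in PATU-8902 and 1 (0.00871%) lower, 13 of the 23 enzymes among those higher. On values as deposited the 24 h contrast called 1 gene, so these calls rest on the shift to a common median. The 24 h contrast shares the DMSO libraries with the 6 h contrast, so values are set side by side without an overlap test. The median line difference of the 23 enzymes was 0.33 at 6 h and 0.94 at 24 h. For INSIG1 the values were 0.83 and 0.94, for SQLE 0.50 and 1.35, for HMGCS1 0.44 and 1.27, and for DHCR7 0.77 and 1.38. For IFITM1 they were 1.40 and 0.58, and for MYLIP -0.86 and -0.47, neither of which passed at either time.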

How the data were processed

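Polyadenylated RNA of 18 libraries in 6 groups of 3 was sequenced, in biological triplicate per the series record. The authors deposited 1 table of FPKM values by gene symbol, without coordinates. The submitters' processing notes name HISAT, Cufflinks and Cuffnorm and build hg19, with no versions. Because the table has no counts, library depth cannot be given and no interval covers counting error.

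The 92 spike-in rows were removed, genes were kept at a mean of 1 FPKM or more over 18 libraries, and log2(FPKM + 1) values were shifted to a common library median. Fold changes on this scale understate changes of low genes, and the shift also moves values at the floor of the table. Using limma 3.58.1 in R 4.3.3, 6 group means were fitted with a trended prior variance and 12 residual degrees of freedom. P-values are 2-sided, adjusted by Benjamini-Hochberg over 11477 genes, with a threshold of 0.05. The code was tested on simulated data. Alternatives changed the scaling, pseudocount, filter, libraries or replicate block. Those leaving out PATU-8988T DMSO replicates 2 and 3, or its replicate 1 with all 24 h libraries, were chosen after seeing the data. Genes named are DCLK1, the 8 of smallest p in each direction of the line difference, genes called in either line, the 8 most like INSIG1, and members of 35 gene lists. Small RNAs were not ranked, and some genes that meet this rule are not reported here. Members, lists and tests were chosen with earlier results of these data known. Promoters are from RefSeq (GRCh38.p14), matched by symbol.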

Additional observations from a re-analysis of the deposited data

Results flagged for a closer look

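At 24 h the effect of DCLK1-IN-1 differed between the lines, by limma's test of the difference itself (adjusted p below 0.05 over 11477 genes), for 13 of the genes named here, all with the higher value in PATU-8902. On values as deposited the 24 h line difference called 1 gene, so these calls rest on the shift to a common median. Its median over all genes tested was 0.39 as deposited and -0.02 after the shift. In the mevalonate pathway the line differences (log2) were 1.27 for HMGCS1, 1.04 for IDI1 and 1.09 for MVK. From squalene onwards they were 1.14 for FDFT1, 1.35 for SQLE, 1.10 for LSS and 1.10 for CYP51A1. In late sterol synthesis they were 1.47 for HSD17B7, 0.81 for NSDHL and 1.38 for DHCR7. Among regulators they were 0.94 for INSIG1 and 0.97 for SREBF2, and ACSS2, the acetyl-CoA synthetase, was at 1.01. The same genes had line differences of 0.21 to 0.83 at 6 h, none of which passed. The change from 6 h to 24 h was not tested.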

How the results depend on the processing

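The count of 0 genes for the line difference at 6 h was 0 as deposited, with spike-in scaling, cyclic loess or no filter. It was 2 with a pseudocount of 0.1 (SQLE and G0S2) and 1 with a minimum mean of 5 FPKM (SQLE). With only the 12 compared libraries it was 1, a small RNA, and 1431 with those less PATU-8988T DMSO replicate 1. Leaving out 1 library gave 0 to 2308, the highest without PATU-8988T DMSO replicate 1. The few genes called without a PATU-8902 DMSO replicate were all small RNAs. The 13 calls in PATU-8902 were 1 as deposited, 1 with spike-in scaling, 20 with cyclic loess and 5 with no filter, and 11 to 18 leaving out 1 library. The 9 calls in PATU-8988T were 0 as deposited, 0 with spike-in scaling, 15 with cyclic loess, 0 with no filter, 16 with a minimum mean of 5 FPKM, 5 with 12 libraries, 4386 with those less DMSO replicate 1, and 4 to 4884 leaving out 1 library (without 6 h replicate 3 and without DMSO replicate 1). With a replicate block within a line the line difference called 0 genes, PATU-8902 13 and PATU-8988T 5, and with a replicate block shared by the lines 0, 14 and 9. Deviations of same-numbered libraries from their group means had r = -0.14, -0.22 and -0.03 in PATU-8902 and 0.12, -0.08 and 0.06 in PATU-8988T. These r are over genes and cannot show whether same-numbered libraries were handled together. Over 43 genes, 916 of 987 values kept direction and side of the threshold, 70 newly passed, and DCLK1 turned to 0.011 without PATU-8988T DMSO replicates 2 and 3. The causes were not tested. Where a group keeps 1 library, it is assumed to vary like the others.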
